A study of Mus musculus with 24 samples.

Results

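A set of 7 genes of 2-oxoglutarate and GABA breakdown was followed in mouse hearts, and the transcripts of 2 of them, Ogdhl and Abat, were lower in every heart with the mutant thyroid hormone receptor than in every wild-type heart of the same maternal treatment. The genes were Ogdhl, Ogdh, Dlst and Dld of the oxoglutarate dehydrogenase complex and Abat, Aldh5a1 and Glud1 of the GABA shunt and the glutamate supply. Each was read from the probe set annotated to its symbol on a Clariom S array. Of the 7 genes listed, 6 had such a probe set, 1 each, among 22139 genes and unnamed probe sets, and all 6 were among the 19801 whose mean log2 value was above 4 in at least 1 group. No probe set was named for Glud1 in the annotation used, so it was not analysed here. The set was chosen by the measured difference of Ogdhl between the genotypes in offspring of untreated mothers, and the other genes were set beside it as its paralogue, its partners and the neighbouring pathway. All values of that contrast are therefore given as a description, with no test.

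The oxoglutarate dehydrogenase complex sits in the mitochondrial matrix and turns 2-oxoglutarate, an intermediate of the citrate cycle, into succinyl-CoA. Its dehydrogenase subunit is encoded by Ogdh or by the paralogue Ogdhl, which is best known from brain, its succinyltransferase core by Dlst, and its dihydrolipoamide dehydrogenase, shared with the pyruvate and branched-chain complexes, by Dld. The GABA shunt leads around this step: the transaminase Abat turns GABA into succinic semialdehyde and passes the amino group to 2-oxoglutarate, and the dehydrogenase Aldh5a1 turns the semialdehyde into succinate. Glud1 links glutamate and 2-oxoglutarate.

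Whole hearts came from 24 male C57/BL6NCr mice aged 4 to 5 months and housed at 22 °C, 6 in each of 4 groups. TRα1+m mice were heterozygous for the R384C exchange in thyroid hormone receptor α1, a germline mutation that weakens hormone binding and lets the receptor act against the intact copy wherever it is expressed, and wild-type mice carried none. The mothers in 2 of the groups drank 0.5 mg/L T3, the active thyroid hormone, between embryonic days 12.5 and 18.5 in water that held 0.01% BSA, and those of the other 2 groups drank BSA water alone. These days are those of the labels, and the methods of the study end the treatment a day earlier. The offspring themselves received no hormone, so maternal T3 here means an exposure before birth that was read in the adult. Litters are not given in the sources used here, and p-values count each mouse as independent.

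Because the mutated protein is a transcription factor, the stretch before the start of Ogdhl is shown beside that of Ogdh, the paralogue that did not pass by genotype. Each is the RefSeq sequence of build GRCm38.p6 from 250 to 51 bases before the annotated start, 5′ to 3′ on the gene's strand, and capitals mark the half-site AGGTCA to which thyroid hormone receptors and several related nuclear receptors bind.
Ogdhl, chr14:32321769-32321968 (+): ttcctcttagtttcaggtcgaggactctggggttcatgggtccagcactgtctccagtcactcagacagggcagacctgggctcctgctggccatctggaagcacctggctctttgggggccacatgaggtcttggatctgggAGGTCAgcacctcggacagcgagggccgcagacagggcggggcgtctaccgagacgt
Ogdh, chr11:6291347-6291546 (+), the first of its 6 annotated starts: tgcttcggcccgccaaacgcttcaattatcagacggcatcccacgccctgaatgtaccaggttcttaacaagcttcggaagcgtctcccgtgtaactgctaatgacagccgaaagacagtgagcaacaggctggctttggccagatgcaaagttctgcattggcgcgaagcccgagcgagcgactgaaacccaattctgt
The window of Ogdhl held 1 half-site, beginning 107 bases before the start, and none of the 6 windows of Ogdh held one on either strand. The windows of Dlst, Dld and Aldh5a1 held none. Abat, the other gene that fell, had no entry among the windows and was not searched. Of all 32851 windows of this length, 11.4% held AGGTCA or its complement TGACCT. In 4 windows (0.0122%) 2 copies faced the same way with 4 bases between them. None of these was a window of Ogdhl, Ogdh, Dlst, Dld, Aldh5a1 or Glud1, and the windows of other genes were not looked up by name. A match says only that these letters stand in the window.

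Array medians ran from 6.85 to 6.95 and correlations between arrays from 0.973 to 0.99. On the first principal component, which held 17.5% of the variance, 5 arrays stood apart. They were mouse 4 of the untreated TRα1+m group, mice 14 and 15 of the T3-exposed wild-type group and mice 16 and 17 of the T3-exposed TRα1+m group. The labels number 9 mice below 20 and 15 above 30 without saying what the ranges mean, and values within the ranges and without the 5 arrays are given where they bear on a result. All 7 cardiomyocyte markers were present, with mean log2 values of 17.38 to 19.82 over the 24 arrays. Whole hearts mix cell types, and fewer cells of a type and less RNA per cell cannot be told apart.

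Ogdhl, the dehydrogenase paralogue, separated the genotypes. In wild-type mice of untreated mothers its log2 values had a lowest of 12.04, a median of 12.45 and a highest of 12.86, and in untreated TRα1+m mice they were 10.16, 10.64 and 11.19. The groups did not overlap, and none of 36 mutant and wild-type pairs had the mutant higher. The means were 12.44 ± 0.28 and 10.67 ± 0.43 (SD, n = 6 each), so the mutant mean was 3.42-fold lower in the contrast by which the gene was picked. Over all genes tested, 1.83% had mutants wholly below wild-type mice in that contrast.

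In the offspring of T3-treated mothers, which that choice did not use, the fall of Ogdhl was measured again. The tests were chosen with earlier results of these data known. Wild-type values were 12.10 at the lowest, 12.23 at the median and 12.38 at the highest, and TRα1+m values were 9.14, 10.08 and 10.64. Every mutant heart lay below every wild-type heart, by at least the distance from 10.64 to 12.10. The means were 12.23 ± 0.10 and 10.08 ± 0.55 (SD, n = 6 each), a difference of -2.15 on the log2 scale (SE 0.21, 95% confidence interval -2.59 to -1.72), or 4.45-fold lower in mutants, with an adjusted p of 3.48e-07 in limma. A two-sided exact permutation test of 6 against 6 mice gave 0.00216, the smallest p it allows. In size this was the fifth fall among the 19801 genes, of which 1.08% had mutants wholly below wild-type mice here. Between mice numbered over 30 the difference was -1.86 (4 against 3 mice, exact permutation p = 0.0286, the smallest possible), between those under 20 it was -2.71 (2 against 3 mice, p = 0.1 in the exact test, again the smallest possible), and without the arrays set apart it was -1.87.

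**Figure D1:**
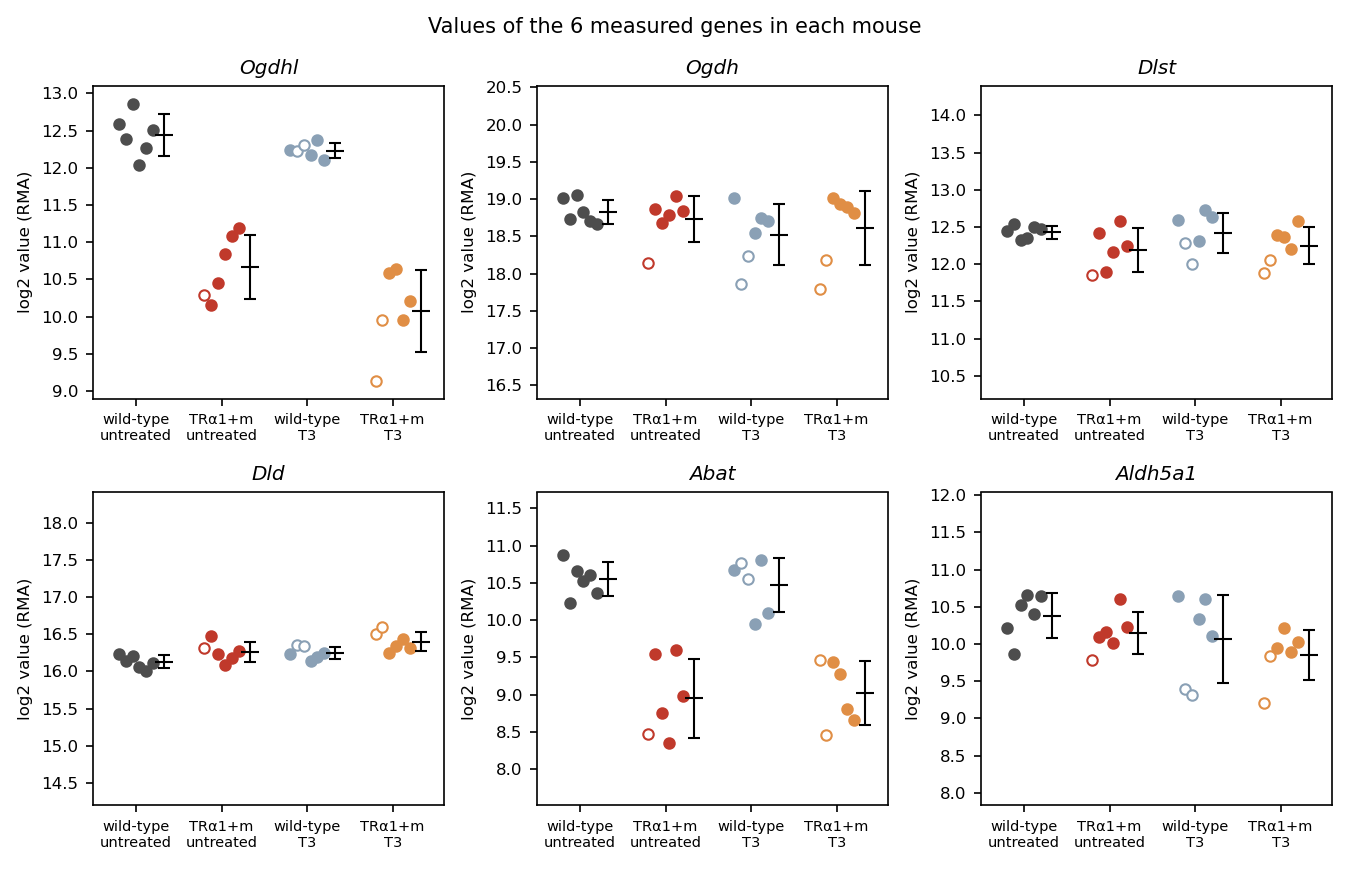
Log2 value (RMA) of each measured gene in each of the 24 mice by group, with the group mean and SD in black beside the points, open circles for the 5 arrays that stood apart, and the same span of log2 units in every panel. The 2 TRα1+m groups lie below both wild-type groups for Ogdhl (at most 11.19 against at least 12.04) and Abat (at most 9.60 against at least 9.95), and the groups overlap in the other 4 panels.

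Abat, the GABA transaminase, was the second gene that fell. Untreated wild-type mice had log2 values of 10.23, 10.57 and 10.88 (lowest, median, highest) and untreated TRα1+m mice 8.35, 8.86 and 9.60, without overlap. The means were 10.55 ± 0.23 and 8.95 ± 0.53 (SD, n = 6 each), 3.03-fold lower in mutants, in the contrast that is described only. After maternal T3 the wild-type values were 9.95, 10.61 and 10.81 and the TRα1+m values 8.45, 9.04 and 9.46, again without overlap. The difference of the means, 10.47 ± 0.36 and 9.02 ± 0.43, was -1.46 (SE 0.22, 95% confidence interval -1.92 to -1.0), a 2.75-fold lower level in mutants with an adjusted p of 0.000231 in limma. The exact permutation test gave 0.00216 here as well. Within the mice numbered over 30 the Abat difference was -1.24 (exact permutation p = 0.0286, 4 against 3 mice) and without the arrays set apart -1.34.

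By genotype after maternal T3, then, 2 of the 6 measured genes passed as lower and none as higher, where 2.79% of all genes tested passed in either direction, 1.66% as lower and 1.13% as higher. The median difference of the 6 genes was -0.20, and that of all genes tested was -0.01. Among all genes tested, 0.419% had mutants wholly below wild-type mice under both maternal treatments, and Ogdhl and Abat were 2 of these 83 genes. The first of these contrasts is the one that picked Ogdhl. The count of 2 among 6 genes and their median also include this gene, which entered the set for its fall in untreated mutants. They therefore cannot be weighed against the shares over all genes as those of an unpicked set could.

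Ogdh, the widely expressed dehydrogenase paralogue, did not pass. Its log2 means were 18.83 ± 0.16 and 18.73 ± 0.31 in untreated wild-type and TRα1+m mice and 18.52 ± 0.41 and 18.61 ± 0.50 after maternal T3 (SD, n = 6 each). The difference after maternal T3 was 0.09 with a 95% confidence interval from -0.34 to 0.51 (adjusted p = 0.917, limma). The highest value in the whole table was 19.9, and how far a rise or a fall of Ogdh RNA would show so near the top of the scale was not tested. Its lowest values, 17.79 to 18.24, were those of the 5 arrays that stood apart.

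The change of the paralogues was compared within each mouse, as the log2 value of Ogdhl minus that of Ogdh. After maternal T3 this difference averaged -8.52 ± 0.26 in mutant and -6.29 ± 0.43 in wild-type mice (SD, n = 6 each). Its level has no meaning across probe sets, but its shift by genotype on the deposited log2 scale, -2.24, exceeded the spread between mice, with no mutant above any wild-type mouse in 36 pairs and an exact permutation p of 0.00216. The shift was -2.11 between mice numbered over 30, -2.33 between those under 20 and -2.03 without the arrays set apart. Whether the probe set of Ogdh, so near the highest values of the table, answers to a change of its RNA as that of Ogdhl does was not tested, so the shift compares probe set values and not amounts of RNA.

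Dlst and Dld, the core and the shared dehydrogenase of the complex, differed little between the groups. Dlst values ran from 11.86 to 12.73 over the 24 mice, and its difference by genotype after maternal T3 was -0.18 (95% confidence interval -0.49 to 0.14, adjusted p = 0.685, limma). Dld, which varied least of the 6 genes (SD within groups 0.11), ran from 16.01 to 16.60. Its group means were 16.13 and 16.26 in untreated wild-type and TRα1+m mice and 16.25 and 16.40 after maternal T3, so that 29 of 36 pairs had the mutant higher under either maternal treatment. The difference after maternal T3 was 0.15 (95% confidence interval -0.07 to 0.38) and did not pass over all genes (adjusted p = 0.604, limma), although the exact permutation test of this gene alone gave 0.0433.

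Aldh5a1, the dehydrogenase that takes over the product of Abat, also did not pass. Its means were 10.38 ± 0.30 and 10.15 ± 0.28 in untreated wild-type and TRα1+m mice and 10.07 ± 0.59 and 9.85 ± 0.34 after maternal T3 (SD, n = 6 each). The difference after maternal T3 was -0.21 (95% confidence interval -0.66 to 0.23, adjusted p = 0.749, limma). The values 9.39 and 9.32 of wild-type mice 14 and 15 and 9.21 of mutant mouse 16, all of arrays that stood apart, were its lowest, and without such arrays the difference was -0.41 with the ranges 9.89 to 10.21 and 10.11 to 10.65. Within a mouse, Abat minus Aldh5a1 shifted by -1.24 in mutants after maternal T3, with 4 of 36 pairs the other way (exact permutation p = 0.0152), a comparison added after the values were seen. Between mice numbered over 30 that shift was -0.91 (exact permutation p = 0.0571, 4 against 3 mice).

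**Figure D2:**
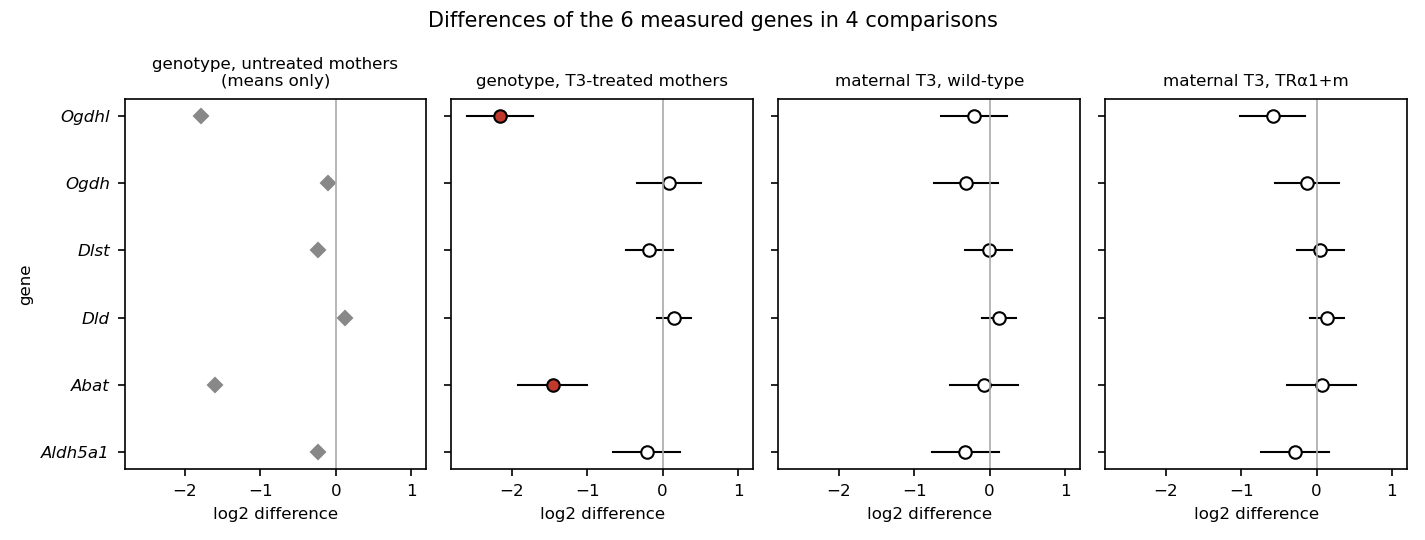
Log2 difference of each measured gene in 4 comparisons (TRα1+m minus wild-type, or T3-exposed minus untreated), with 95% confidence intervals from limma as bars, red for genes that passed at an adjusted p under 0.05, and grey diamonds without intervals for the contrast that picked Ogdhl. Ogdhl (-2.15) and Abat (-1.46) are the red points, both by genotype after maternal T3, and no gene passed in either maternal T3 comparison.

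Whether exposure to T3 before birth shifted the adult level was asked in each genotype. In wild-type mice 0 of the 6 genes passed, where 0.00505% of all genes did (limma), and 0 of the 6 had an unadjusted p under 0.05, where 11% of all genes did, with differences from -0.32 for Aldh5a1 to 0.12 for Dld. For Dld, 31 of 36 pairs had the T3-exposed wild-type mouse higher, and the exact permutation test of this gene alone gave 0.0325. In TRα1+m mice 0 of the 6 passed, where 0.0859% of all genes did, and 1 of the 6, Ogdhl, had an unadjusted p under 0.05, where 8.31% did. For Abat the maternal T3 differences were -0.07 in wild-type (95% confidence interval -0.53 to 0.38) and 0.07 in mutant mice (-0.39 to 0.52), so that a return to the wild-type level, a rise of the size of the genotype difference, lay outside the interval.

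For Ogdhl the maternal T3 comparison in mutants did not pass. The difference between T3-exposed and untreated TRα1+m mice was -0.58 (SE 0.21, 95% confidence interval -1.02 to -0.15, adjusted p = 0.473, limma), and in 7 of 36 pairs the T3-exposed mouse was higher. The untreated mutants belong to the contrast that picked the gene, so these values are a description and no support for a further fall. Their 3 mice numbered under 20 had 10.16 to 10.45 and their 3 numbered over 30 had 10.84 to 11.19, without overlap. Within each range the T3-exposed mutants lay wholly below. Under 20 they had 9.14 and 9.95 against 10.16 to 10.45 (2 against 3 mice, exact permutation p = 0.1, the smallest possible). Over 30 they had 9.96 to 10.64 against 10.84 to 11.19 (4 against 3 mice, difference -0.68, exact permutation p = 0.0286, again the smallest possible). The share of all genes without overlap within the ranges was not counted. With the label range as a block the difference was -0.65 and the adjusted p 0.22. Without the arrays set apart it was -0.39, with overlapping values of 9.96 to 10.64 and 10.16 to 11.19 (exact permutation p = 0.159, 4 against 5 mice).

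The untreated mice in the following comparisons, too, are those of the contrast that picked Ogdhl, so their values for this gene are no independent test. In wild-type mice the same exposure went with an Ogdhl difference of -0.21 (95% confidence interval -0.64 to 0.23, adjusted p = 0.726, limma). Over both genotypes it was -0.40 (adjusted p = 0.205, limma). There 0 of the 6 genes passed, against 0.0101% of all genes, and Ogdhl alone of the 6 had an unadjusted p under 0.05, against 16.3%. The interaction, which asks how much further maternal T3 moved a gene in mutants than in wild-type mice, was -0.38 for Ogdhl (95% confidence interval -0.99 to 0.24) and 0.14 for Abat (-0.51 to 0.78). The adjusted p was 1 for both, and 0 of the 6 genes and 0 of all genes passed for the interaction in limma, where 0 of the 6 and 4.19% of all genes had an unadjusted p under 0.05. The order of the Ogdhl means was thus untreated wild-type, T3-exposed wild-type, untreated TRα1+m and T3-exposed TRα1+m, and only the step between the genotypes was free of overlap.

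Although Ogdhl and Abat fell in the same mutant hearts, their values were less related from mouse to mouse within a group. Over the 24 mice Pearson's r between them was 0.84, and it was 0.11 once the mean of each group was taken out. On the latter scale r was 0.36 (Spearman's rho 0.64) in the 12 wild-type and 0.04 (rho 0.03) in the 12 TRα1+m mice. The T3-exposed mutant with the lowest Ogdhl value, mouse 16 at 9.14, had the highest Abat value of its group, 9.46. With group means removed, the closest pair of the set was Ogdh and Aldh5a1 (r = 0.75, n = 24), and without the arrays set apart their r was 0.47 (n = 19). All these values share arrays and their normalisation and are given as a description.

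**Figure D3:**
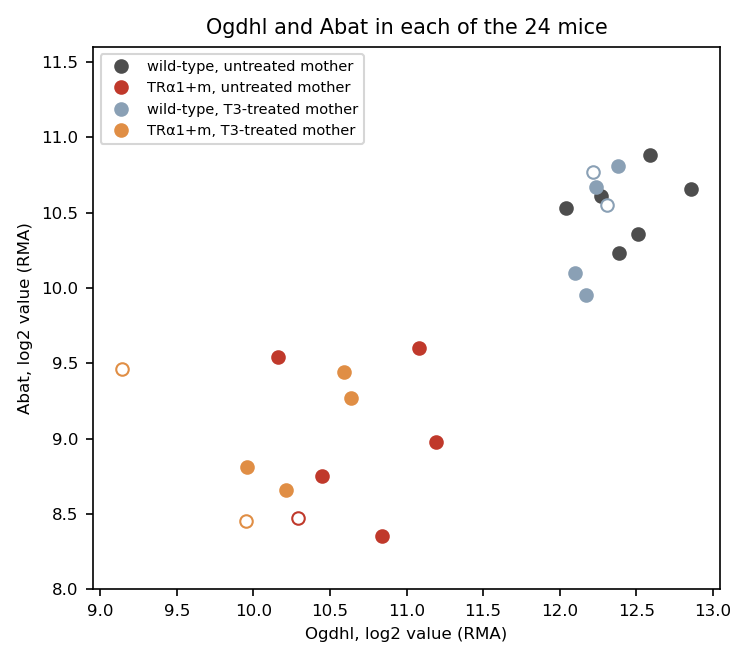
Log2 value (RMA) of Ogdhl on the x axis and of Abat on the y axis for each of the 24 mice, coloured by group, with open circles for the 5 arrays that stood apart. Wild-type and TRα1+m mice form 2 clouds, and the TRα1+m cloud shows no common slope (r = 0.04 with group means removed, n = 12).

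The genes whose values most resembled those of Ogdhl over the 24 mice were looked up among 17477 named genes, as a description. The highest Pearson's r were those of Camk2b (0.93), a subunit of the calcium/calmodulin kinase, Abcb4 (0.93), a phospholipid transporter, Aqp1 (0.92), a water channel, Mfap3l (0.92) and the small heat shock protein gene Hspb8 (0.91). The lowest were those of the monocarboxylate transporter gene Slc16a7 (-0.95), Cep128 (-0.94), which encodes a centrosomal protein, Itm2a, and the matrix genes Postn and Aspn (-0.90 each). Abat ranked 44 in this order. These r hold the genotype step, also that of the contrast which picked Ogdhl. Once group means were removed, r was 0.65, 0.76, 0.69, 0.38 and 0.32 for Camk2b to Hspb8 in the order given. For Slc16a7 to Aspn it was -0.51, -0.40, -0.42, -0.67 and -0.45. With group means removed, Slc16a6, another transporter of the monocarboxylate family, came first (0.85), followed by Vwa8 (0.81) and Ppp1r14c (0.77). The last of these did not share the genotype step, with a difference of -0.30 after maternal T3 against -2.15 for Ogdhl.

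Around these genes, 3 lists of neighbouring metabolism were counted by genotype after maternal T3. Of 22 tested genes of the other 2-oxoacid dehydrogenases and of lipoylation, 1 rose and 2 fell, where 1.13% of all genes tested rose and 1.66% fell, with a median difference of -0.08 against -0.01 over all genes tested. Ppm1k, the phosphatase that activates the branched-chain complex, rose by 0.72 (adjusted p = 0.00168, limma), from 13.57 to 14.07 in wild-type mice to 14.32 to 14.77 in mutants without overlap. In offspring of untreated mothers its difference was 0.16, with overlapping values of 13.87 to 14.25 and 13.96 to 14.67. Pdp2, a phosphatase that activates pyruvate dehydrogenase, fell by 0.94 (adjusted p = 0.0148, limma), and Pdhx, the component that anchors Dld in that complex, fell by 0.60 (adjusted p = 0.0214, limma). The call for Pdhx was lost when any of 4 mice was left out, namely wild-type mice 15 and 47 and mutant mice 49 and 51 of T3-treated mothers (adjusted p from 0.0555 to 0.0677, limma).

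None of 18 tested genes of the rest of the citrate cycle passed, where 4 of the 18 and 13.7% of all genes had an unadjusted p under 0.05, and their median difference was -0.08. The lowest p was that of Sucla2, a subunit of the succinyl-CoA synthetase that uses the product of the oxoglutarate dehydrogenase complex, with a difference of -0.48 and an adjusted p of 0.0519 in limma. It passed when any of 4 mice was left out, namely untreated mutant mouse 4, T3-exposed wild-type mice 14 and 48 and T3-exposed mutant mouse 17 (adjusted p from 0.0132 to 0.0484, limma). Of 22 tested genes of GABA and glutamate metabolism, of 31 listed, 5 had an unadjusted p under 0.05 by genotype after maternal T3. So did 7 of the 22 2-oxoacid dehydrogenase and lipoylation genes, against 13.7% of all genes. In the GABA and glutamate list Gpt2 alone passed, where 2.79% of all genes tested passed, 1.66% as lower. This mitochondrial alanine transaminase, which also uses the pair of glutamate and 2-oxoglutarate, fell by 0.81 (adjusted p = 0.00398, limma), with 8.20 to 9.0 in wild-type and 7.50 to 8.09 in mutant mice. The list's median was -0.09, and the difference of Gad1, which makes GABA, was -0.04. No gene of the 3 lists passed in either genotype for maternal T3, over both genotypes or for the interaction in limma. At an unadjusted p under 0.05 there were 7 of the 22 2-oxoacid dehydrogenase and lipoylation genes for maternal T3 in wild-type mice (11% of all genes), 3 in TRα1+m mice (8.31%), 6 over both genotypes (16.3%) and 2 for the interaction (4.19%). The citrate cycle list had 2, 0, 5 and 0 of 18 in the same order, and the GABA and glutamate list 2, 1, 2 and 0 of 22.

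**Figure D4:**
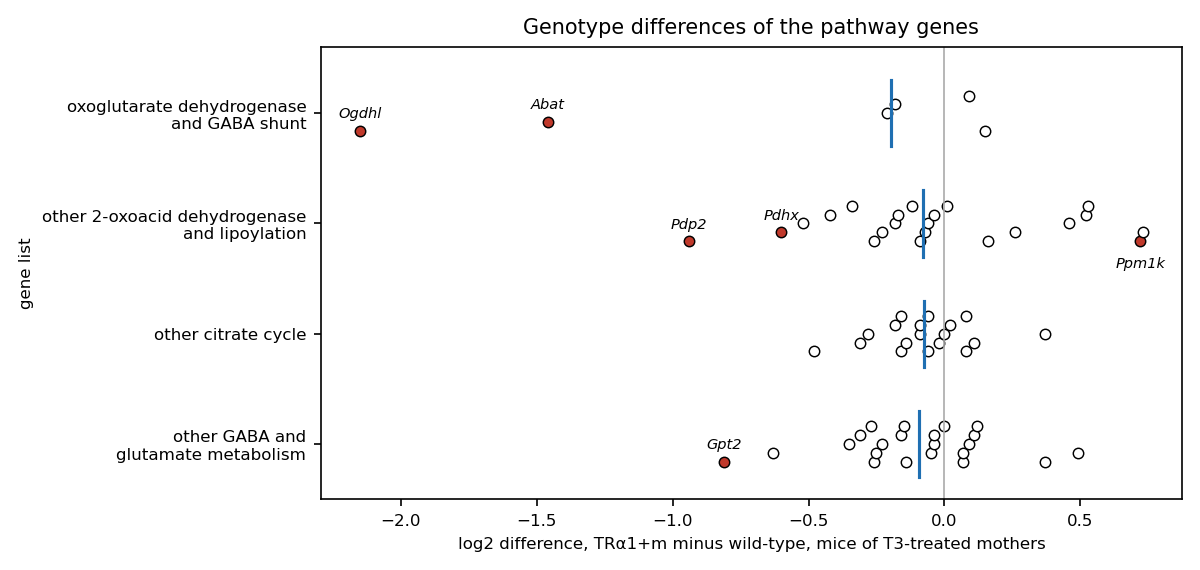
Log2 difference between TRα1+m and wild-type mice of T3-treated mothers (x axis) for each tested gene of the 4 lists (y axis), in red where the gene passed at an adjusted p under 0.05, with the median of each list as a blue line. Ogdhl at -2.15 and Abat at -1.46 lie furthest to the left, and the list medians lie between -0.20 and -0.08.

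Markers of other cell types were read beside these results, by the mean log2 value of a list in each mouse. The 8 measured markers of neurons and Schwann cells, in whose tissues Ogdhl and the GABA genes are best known, had means of 4.42 to 5.96, near the limit for testing, with list means of 5.15 to 5.61 in wild-type and 4.91 to 5.55 in TRα1+m mice after maternal T3. Cardiomyocyte list means were 18.87 to 19.19 and 18.90 to 19.16 in the same groups. The 4 measured fibroblast markers ran from 12.30 to 13.13 in wild-type and from 12.95 to 14.34 in mutant mice, with a median difference of 0.53, and 0 of the 4 passed. In the offspring of untreated mothers, where Ogdhl and Abat were also lower, the fibroblast list means were 11.94 to 12.64 in wild-type and 12.77 to 13.57 in TRα1+m mice and the means of the 5 endothelial markers 12.91 to 13.15 and 12.34 to 12.87, both without overlap and in opposite directions. After maternal T3 the 4 adipocyte markers ran from 4.72 to 8.39 and from 4.54 to 11.19, with a median difference of 0.53. Immune markers differed by a median of -0.50 and endothelial markers by -0.08, and none of the measured markers of any of the 9 cell types passed by genotype after maternal T3. The means of the 4 atrial cardiomyocyte markers varied widely between mice. In the offspring of untreated mothers they were 11.31 to 14.70 in wild-type and 12.01 to 14.84 in TRα1+m mice. After maternal T3 they were 13.11 to 16.28 and 13.16 to 15.89. The part of these cell types in the falls of Ogdhl and Abat, or in the maternal T3 comparisons, was not tested.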

How the data were processed

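RNA of 24 hearts was isolated with RNeasy kits and hybridised to Clariom S mouse arrays, 1 mouse per array. The authors deposited log2 values from RMA (Transcriptome Analysis Console 4.0.1), a method that subtracts background, gives all arrays equal distributions and condenses probes to probe sets. The genome build of the array annotation is not given in the sources used here. Of 28846 probe sets, 6640 controls were left out, and for 55 symbols with several probe sets the brightest over the 24 arrays stood for the gene. Genes whose mean passed 4 on the log2 scale in any group, a rule set here at the study's threshold for expressed genes, were tested with limma 3.58.1 in R 4.3.3 (lmFit and eBayes on all 24 arrays, Benjamini-Hochberg adjustment over 19801 genes, passed at 0.05). The study named two-factor analysis of variance for its own gene panel, with another correction. The alternative given that name here tested the same group differences with each gene's own spread alone. It used Benjamini-Hochberg adjustment over all genes and did not repeat the study's panel or correction. Single values were compared with two-sided exact permutation tests. The fits were tested on simulated data. Array data carry no counts, so the precision rests on 6 mice per group. Named genes were the 7 members, the closest and most opposed genes to Ogdhl, and from each list up to 4 genes that passed or else the one of lowest p. Members, lists and tests were chosen with earlier results of these data known. Promoter windows are RefSeq sequences of GRCm38.p6, and Abat had no entry there. Each window held 200 bases.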

Additional observations from a re-analysis of the deposited data

Results flagged for a closer look

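Of 96 sets of a gene and a group, 6 held 1 mouse far from the other 5 of its group by Dixon's criterion, which chance meets in about 1 of 20 sets. Among the oxoglutarate dehydrogenase and GABA shunt genes this was Aldh5a1 in T3-exposed TRα1+m mice, where mouse 16 had a log2 value of 9.21 and the others 9.84 to 10.21. Mouse 16 also stood apart for Mfap3l, at 7.18 against 7.79 to 7.98, and for Postn, at 12.94 against 10.66 to 11.35. In the same group mouse 49 had 6.71 for Pdp2 against 7.45 to 7.73, and mouse 17 had 9.13 for Sucla2 against 8.47 to 8.64. Without mouse 17 the adjusted p of Sucla2 was 0.0132 in limma. In untreated wild-type mice, mouse 56 had 8.98 for Slc16a6 against 9.76 to 10.21. The arrays of mice 16 and 17 are 2 of the 5 that stood apart on the first principal component. The cause of these values was not tested.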

How the results depend on the processing

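By genotype after maternal T3, Ogdhl kept its call under all 13 alternatives (differences of -2.22 to -1.86, adjusted p of 3.1e-08 to 0.000302 in limma, and the exact test), and Abat under all 12 (-1.46 to -1.24, 8.23e-05 to 0.0343). Some of these could not have removed either call, namely unadjusted p-values and an added condition of at least a 1.5-fold change. Leaving out each mouse in turn gave -2.26 to -1.96 for Ogdhl and -1.56 to -1.35 for Abat, and 2 members passed in every such fit. In the contrast that picked Ogdhl, its difference was -1.38 between mice numbered over 30 and -1.88 to -1.67 without 1 mouse, and that of Abat was -1.73 to -1.48. Ogdhl minus Ogdh shifted by -2.34 to -2.11 without 1 mouse. Of 1032 values of single members under all alternatives, 62 changed sign while staying short of the threshold. With unadjusted p-values, 1 member, Ogdhl, passed for maternal T3 in TRα1+m mice and 1 over both genotypes, and otherwise 0 members passed for maternal T3 or the interaction, also without any 1 mouse.

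Counts over all genes moved more. By genotype without maternal T3 they were 321 in all arrays, 557 with array weights, 159 between mice numbered over 30, 529 without the arrays set apart and 233 to 378 without 1 mouse. After maternal T3 they were 552, 278 with only the groups compared, 276 between mice numbered over 30 and 399 to 586 without 1 mouse. For maternal T3 in wild-type mice 1 gene passed, 2 passed with a filter at 5, with the trended robust fit and with the two-factor analysis of variance, 0 between mice numbered over 30 and 0 without the arrays set apart, and 0 to 2 without 1 mouse. In TRα1+m mice 17 passed, 32 with the trended robust fit, 39 with array weights, 30 with the label range as a block, 11 with only the groups compared, 0 with the analysis of variance, 0 between mice numbered over 30 and 0 to 42 without 1 mouse, the 42 without untreated mutant mouse 4. Over both genotypes 2 passed, 0 between mice numbered over 30 and 2 to 42 without 1 mouse. For the interaction 0 passed, 1 with array weights and 0 to 1 without 1 mouse. With unadjusted p-values the counts were 2280, 2713, 2174, 1645, 3222 and 830 in this order. The cause of these shifts was not tested. Pdp2 (-1.0, adjusted p = 0.0695, limma) and Pdhx (-0.71, 0.078), with differences no smaller than in all arrays, did not pass between mice numbered over 30, Pdhx (0.12) did not pass with only the groups compared, and Sucla2 passed under 5 alternatives (adjusted p of 0.017 to 0.0357 in limma or the analysis of variance, and 0.00148 unadjusted).

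Mice could not be paired or grouped by litter, because litters are not given in the sources used here. The methods of the study name control littermates of the mutants, and T3 was given to the mothers. Another probe set per gene could not be tried, since each of the 6 genes has 1. Whether values near the highest of the table, 19.9, are compressed was not tested, which bears on Ogdh most, and 6 mice per group leave intervals of about 0.4 on either side for Ogdhl.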
